A study of Xenopus tropicalis with 26 samples.

Results

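Convergent features with overlapping 3′ ends were described in whole embryos and adult bodies of the frog Xenopus tropicalis. Such a pair has a feature on the plus strand and a feature on the minus strand of one scaffold, placed so that the plus feature starts first, the minus feature starts inside it, and the minus feature ends last. The overlap then holds the 3′ ends of both. This rule used positions and strands alone and found 674 pairs, built from 1341 of the 27836 features of the table (4.82%), on 91 scaffolds. A total of 7 features stood in 2 pairs. The overlapping pairs were set against 2374 separate pairs, which are tail-to-tail neighbours with a gap of 1 to 10 kb, no other feature touching the gap and neither partner in an overlapping pair.

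Convergent genes are transcribed towards each other, so that their transcripts end in or near the same stretch of DNA. Where the ends overlap, the RNAs are complementary there, and collisions of converging polymerases have been described in budding yeast. A poly(A) tail marks the 3′ end of most messenger RNAs, and a method that reads from the tail places its reads near that end. In an overlapping pair, that is the place where the transcribed strand is needed to tell the partners apart.

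The method labelled WTTS keeps fragments with a poly(A) tail, whereas RNA-seq reads come from along the transcript. Embryo pools of stages 6, 8, 11, 15 and 28, each from 2 families, gave 10 WTTS libraries, and the pools of stages 6, 8 and 11 also gave 6 RNA-seq libraries. Stages 6 and 8 precede gastrulation, stage 11 falls in it, stage 15 is a neurula and stage 28 a tailbud embryo. Whole bodies of adult frogs gave 2 technical repeats of 1 female by WTTS, 7 WTTS trials of a pooled RNA of 3 male and 3 female frogs, and 1 RNA-seq library of that pool. The labels name no genotype, strain or treatment. The families are the replicates of a stage, each being a pool of embryos, while the female repeats and the trials measure technical spread only. Total counts ran from 1536128 to 6276132 in embryo WTTS libraries, from 110710673 to 131001449 in embryo RNA-seq libraries, 11403853 and 22287985 in the female repeats, from 8364595 to 42424000 in the trials, and 73522777 in the adult RNA-seq library. Levels are given as CPM, counts relative to library size, with library sizes scaled by TMM. In whole embryos and bodies, fewer cells of a type and less RNA per cell cannot be told apart.

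The strand setting of the counting and the genome build of the positions are not given in the sources at hand. Reads that fall in an overlap can be assigned to a partner only if strand was used. The table does not pair its identifiers with gene names, so features are named by identifier, and no roles are given.

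The overlaps ran from 1 to 140153 bp, with a median of 1713.5 bp and quartiles of 796 and 3240.5 bp. In 26 pairs the overlap was 100 bp or less, in 95 it was over 5000 bp, and in 159 pairs it covered 50% or more of the shorter partner. Member features spanned a median of 15347 bp on the scaffold, against 14488 bp in separate pairs and 10820 bp over all features. Of the 674 pairs, 455 touched no other feature.

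Members took 7.05 to 8.78% of all counts in embryo WTTS libraries and 5.14 to 5.76% in embryo RNA-seq libraries. They were somewhat more abundant than separate partners in both methods: their median level over the 6 pools with both methods was 6.23 CPM by WTTS, against 4.46 CPM in separate partners and 1.26 CPM over all features. By RNA-seq the medians were 6.78 CPM in members, 5.89 CPM in separate partners and 0.775 CPM over all features. RNA-seq levels were not divided by length, and these differences were not tested. Both partners had at least 1 count in 445 to 525 of the 674 pairs in embryo WTTS libraries and in 583 to 626 pairs in the deeper RNA-seq libraries.

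Most overlapping pairs had 1 dominant partner. Taking a pair as readable at a stage when its partners summed to 5 CPM or more in both families, 561 overlapping pairs were readable at 2 or more of the 5 WTTS stages. In 351 of them (62.6%) the same partner was at least 2 times the other in both families at every readable stage, the plus partner in 156 and the minus partner in 195. The dominant partner changed side in 29 pairs (5.17%). Among 1741 separate pairs, 978 (56.2%) kept 1 dominant partner at every readable stage and 123 (7.06%) changed side. The adult female and stage 28 had the same dominant partner in 327 of 499 readable overlapping pairs (65.5%), and the side changed in 19 (3.81%). In separate pairs those counts were 902 and 88 of 1529 (59.0% and 5.76%). The differences between overlapping and separate pairs were not tested.

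The median share of the weaker partner rose with the length of the overlap by both methods, over a wider range by WTTS. Over the 6 pools with both methods, and in pairs whose partners averaged a sum of 5 CPM or more by each method, the weaker partner held a median of 5.30% of the pair's WTTS reads in 507 overlapping pairs and 7.14% in 1639 separate pairs. With overlaps of 1 to 500 bp it held 1.91% (71 pairs), with 501 to 1500 bp 4.25% (154 pairs), with 1501 to 3500 bp 6.54% (168 pairs) and with longer overlaps 7.98% (114 pairs). By RNA-seq the medians in the same pairs were 2.89, 3.96, 4.14 and 5.25%, and 4.72% in separate pairs. The WTTS share was thus below that of RNA-seq for the shortest overlaps and above it in each longer class. These are shares of reads, not divided by length. Median spans also grew over these classes, at 9685.5, 13189, 14231.5 and 23639.5 bp, and their part in the shares was not tested.

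Changes between stages were tested per feature with edgeR's quasi-likelihood test, and a call is a Benjamini-Hochberg adjusted p below 0.05 over all features tested. In the WTTS embryo fit 930 of the 1341 members passed the low-count filter. Both partners passed in 334 overlapping pairs, 1 partner in 267 and none in 73, so the pair counts cover only the 334. Of the 2374 separate pairs, 1101 had both partners tested. A second test took the partner ratio, the plus partner's counts over the minus partner's within each library, so that depth cancels, and was adjusted over all overlapping and separate pairs tested. SE values are the absolute log2 change over the square root of the F statistic.

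Stage 8 against stage 6 gave no call for any of the 14013 features by WTTS with edgeR (background 0%), and DESeq2 called no pair together or in opposite ways. At an unadjusted p below 0.05 there were 338 features, with no overlapping pair changed together and 1 pair changed in opposite ways. No partner ratio was called either, with 13 overlapping pairs at an unadjusted p below 0.05. RNA-seq also gave no call for this step with edgeR (background 0%), and no such pair with DESeq2. At an unadjusted p below 0.05 it gave 1307 of 19413 features, 3 pairs together and none in opposite ways.

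By stage 11 most overlapping pairs had no WTTS call, and those with a call mostly had it in 1 partner only, as did separate pairs. Against stage 8, 96 members rose and 84 fell by WTTS, which is 19.4% of the 930 members tested beside 21.4% of all features tested (11.4% higher and 10% lower). In 105 of the 334 overlapping pairs (31.4%) 1 partner changed and the other did not pass, and in 217 neither passed. Both partners rose in 3 pairs and both fell in 1 pair (1.20% of pairs, against 2.16% of all tail-to-tail pairs), and in 8 pairs they went opposite ways (2.40%, against 1.88%). Separate pairs held 27 changed together (2.45%), 19 in opposite ways (1.73%) and 382 with 1 partner changed (34.7%) among 1101. The log2 changes of partners had a Spearman correlation of 0.05 across the 334 overlapping pairs and 0.07 across the separate pairs, and 178 overlapping pairs (53.3%) had the same sign. Pairs within a library share its depth, so these correlations are descriptions.

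**Figure D1:**
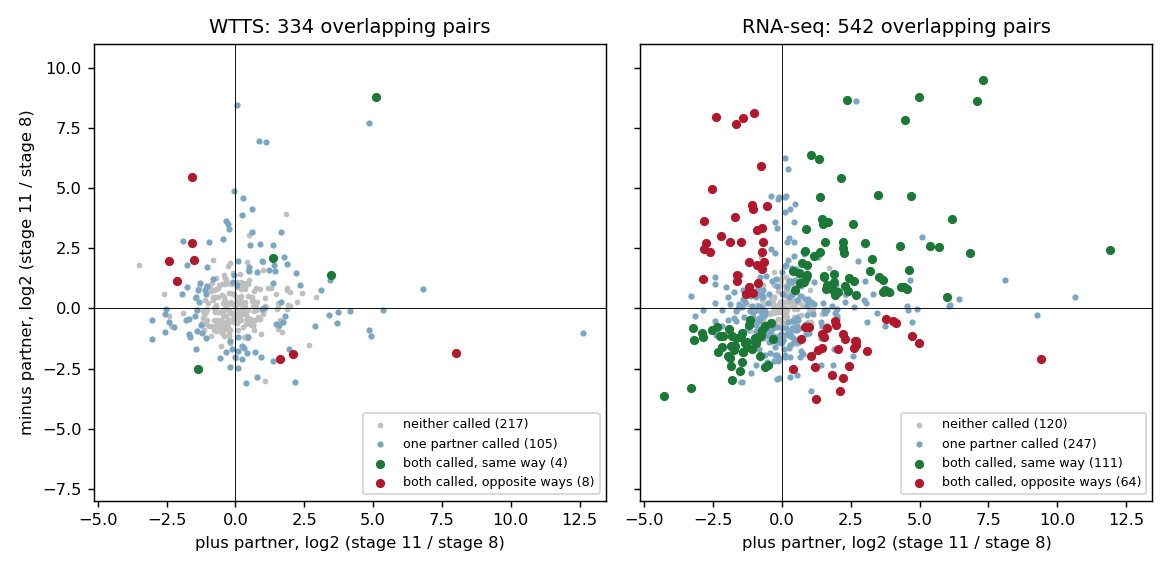
Log2 change of the minus partner (vertical axis) against that of the plus partner (horizontal axis) at stage 11 against stage 8, 1 point per overlapping pair, with WTTS (334 pairs) and RNA-seq (542 pairs) in separate panels and colours for the calls. The WTTS cloud has no slope (Spearman 0.05), and the RNA-seq cloud leans slightly upward (0.17).

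The clearest joint rise was in XLOC_010153 and XLOC_011121, on scaffold_3 at 84956158-84974864 (plus) and 84973360-84984744 (minus), which overlap by 1505 bp and touch no other feature. XLOC_010153 had 15.8 and 48.3 CPM at stage 11 in families 1 and 2, against 0.569 and 1.38 CPM at stage 8 (log2 change 5.09, SE 0.79, edgeR adjusted p = 0.000782). XLOC_011121 had 141 and 348 CPM at stage 11, against 0.854 and 0 CPM at stage 8, where it had 3 counts in all. Both families of stage 11 lay far above both of stage 8 for each partner, though named pairs were chosen for groups that do not overlap. The count ratio of XLOC_011121 was 573, with a counting interval of 196 to 2779 that covers counting error only (edgeR adjusted p = 2.01e-05). The partner ratio of the pair was not called (adjusted p = 0.0714).

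XLOC_000891 and XLOC_002674 were the only pair in which both fell, on scaffold_1 at 104129253-104188693 and 104186423-104219257, with an overlap of 2271 bp. XLOC_000891 had 15.8 and 15.1 CPM at stage 11, against 55.8 and 23.9 CPM at stage 8 (log2 change -1.37, SE 0.44, adjusted p = 0.0427). XLOC_002674 had 20.8 and 9.55 CPM at stage 11, against 90.5 and 88.3 CPM at stage 8 (log2 change -2.52, SE 0.41, adjusted p = 0.00103). Pairs were named only where the groups did not overlap, so the separation of the stages here is no added support. The call of XLOC_000891 was lost without family 1 of stage 8, where its log2 change was -0.64, or either family of stage 11.

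The partner ratio changed in 52 of the 334 overlapping pairs (15.6%), 26 in each direction, against 18.7% of all tail-to-tail pairs and 217 of 1101 separate pairs (19.7%). XLOC_010162 and XLOC_011130, on scaffold_3 at 85733899-85751089 and 85748251-85764518, were the clearest pair to go opposite ways, with an overlap of 2839 bp in a region that also touches another feature. XLOC_010162 had 7.14 and 6.54 CPM at stage 11, against 44.4 and 29.0 CPM at stage 8 (log2 change -2.41, SE 0.46, edgeR adjusted p = 0.0029). XLOC_011130 had 62.2 and 67.9 CPM at stage 11, against 19.9 and 13.3 CPM at stage 8 (log2 change 1.96, SE 0.38, adjusted p = 0.00334). The minus partner was thus the higher one in both families at stage 11 and the lower one at stage 8. Its partner ratio changed by -4.37 on the log2 scale (SE 0.62, adjusted p = 0.000454).

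The largest ratio rise was in XLOC_026644 and XLOC_027662, on scaffold_9 at 97571840-97579934 and 97576770-97613051, with an overlap of 3165 bp. XLOC_026644 had 168 and 282 CPM at stage 11 and no count in either stage 8 library. It was at least 202-fold higher, taking a floor of 3 counts per library (edgeR adjusted p = 1.04e-05). XLOC_027662 had 50.3 and 67.4 CPM at stage 11, against 124 and 119 CPM at stage 8. This log2 change of -1.04 did not pass (adjusted p = 0.0729). The adjusted p of their ratio was 2.08e-05. So a partner that was not detected came to exceed the other in both families.

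The largest ratio fall was in XLOC_023030 and XLOC_024236, on scaffold_8 at 24695585-24740647 and 24739786-24755135, with an overlap of 862 bp and another feature touching them. XLOC_024236 had 912 and 1619.8 CPM at stage 11, against 1.99 and 5.52 CPM at stage 8 (log2 change 8.47, SE 0.67, edgeR adjusted p = 9.86e-06). XLOC_023030 had 41.3 and 49.3 CPM at stage 11, against 44.7 and 41.8 CPM at stage 8 (log2 change 0.07, adjusted p = 0.903). By WTTS the minus partner thus moved alone, while the values of its neighbour overlapped between the stages. By RNA-seq XLOC_023030 had 82.9 to 84.3 CPM at stage 11, against 139 to 143 CPM at stage 8. XLOC_024236 had 278 to 521 CPM by RNA-seq at stage 11, against 5.71 to 7.37 CPM at stage 8. The plus partner was thus lower and the minus partner higher at stage 11 by RNA-seq. The WTTS ratio of the pair changed by -8.40 (SE 0.76, adjusted p = 2.08e-05).

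The small counts of pairs at this step fell with any 1 library left out, which leaves 1 library in that stage. Counts of separate pairs fell as well, and the cause was not tested. The 4 pairs changed together became 1 without family 1 of stage 8 and 2 without any other library of the step. The 8 in opposite ways became 1 without family 1 of stage 8 or family 2 of stage 11 and 3 without the other libraries. The 52 ratio calls became 18 without family 1 of stage 8, 33 without its family 2 and 31 without family 2 of stage 11. With the family as a block, 11 pairs changed together in place of 4. The shares of all tail-to-tail pairs given for this step come from the fit without that block.

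The same step was read by RNA-seq on deeper libraries, and far more partners passed. There, 1190 members were tested, 334 rose and 319 fell, which is 54.9% of members tested beside 58.5% of all features (30.3% higher and 28.2% lower). Of 542 overlapping pairs with both partners tested, 111 changed together (65 up and 46 down, 20.5%, against 20.6% of all tail-to-tail pairs) and 64 in opposite ways (11.8%, against 14.4%). In 247 pairs 1 partner changed and in 120 neither. Separate pairs held 363 together (20.7%), 266 in opposite ways (15.1%) and 805 with 1 partner changed among 1756. The Spearman correlation of partner changes was 0.17 in overlapping and 0.11 in separate pairs. The partner ratio changed in 281 overlapping pairs (51.8%), against 55.9% of all tail-to-tail pairs and 57.2% of separate pairs. Without family 1 or family 2 of stage 8, the pairs changed together numbered 58 and 56, those in opposite ways 29 and 28, and the ratio calls 179 and 183. Without family 2 of stage 11, 38 went opposite ways.

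XLOC_010153 and XLOC_011121 were again the clearest joint rise. XLOC_010153 had 59.9 and 92.1 CPM by RNA-seq at stage 11, against 0.465 and 0.504 CPM at stage 8 (log2 change 7.29, SE 0.34, edgeR adjusted p = 2.53e-05). XLOC_011121 had 253 and 593 CPM at stage 11, against 0.526 and 0.637 CPM at stage 8 (log2 change 9.51, SE 0.54, adjusted p = 4.88e-05). The minus partner rose more, and here the ratio was called, at -2.13 (SE 0.34, adjusted p = 0.00346).

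XLOC_006461 and XLOC_007712, on scaffold_2 at 81047271-81051888 and 81050878-81073384 with an overlap of 1011 bp, were the clearest joint fall by RNA-seq. XLOC_006461 had 14.6 and 17.4 CPM at stage 11, against 165 and 153 CPM at stage 8 (log2 change -3.31, SE 0.15, edgeR adjusted p = 2.41e-05). XLOC_007712 had 10.9 and 12.9 CPM at stage 11, against 121 and 115 CPM at stage 8, also -3.31 (SE 0.16, adjusted p = 2.7e-05). The partners fell in step, with a ratio change of -0.001 (adjusted p = 0.998). By WTTS the pair looked different: XLOC_006461 had 0 to 2 counts in every embryo library, while XLOC_007712 had 5.42 to 22.5 CPM. At this step XLOC_007712 had 12.2 and 14.1 CPM by WTTS at stage 11, against 19.1 and 15.2 CPM at stage 8. The large joint fall was thus read by RNA-seq only.

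In the ratio test by RNA-seq, XLOC_026644 had 45.9 and 95.6 CPM at stage 11, against 0.0915 and 0.116 CPM at stage 8, and XLOC_027662 had 43.9 and 62.3 CPM, against 219 and 231 CPM. Both changes were called there, 9.40 (SE 0.54, edgeR adjusted p = 5.03e-05) and -2.08 (SE 0.21, adjusted p = 0.000405) on the log2 scale. For the opposite pair, XLOC_010162 had 4.44 and 6.03 CPM at stage 11, against 27.0 and 27.8 CPM at stage 8, and XLOC_011130 had 223 and 273 CPM, against 0.884 and 1.09 CPM. By RNA-seq XLOC_011130 was the dominant partner at stage 11 and XLOC_010162 at stage 8, as by WTTS. XLOC_026644 exceeded XLOC_027662 at stage 11 in both families but by less than 2 times. The log2 change of XLOC_011130 was 7.97 by RNA-seq, beside 1.96 by WTTS. Its WTTS level was above its RNA-seq level at stage 8 and below it at stage 11.

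Across the 2 methods, which used the same embryo pools, the WTTS calls of this step recurred. All 3 pairs that rose and the pair that fell by WTTS had the same call by RNA-seq, as did 5 of the 8 opposite pairs. Of the other 3, 2 had 1 partner called and 1 was not tested. In 323 overlapping pairs tested in both, the changes of the partner ratio had a Spearman correlation of 0.663, against 0.749 in 1083 separate pairs. Of 51 ratio changes called by WTTS among them, 47 were called in the same direction by RNA-seq, which is 92.2% of the WTTS calls and 26.6% of the 177 RNA-seq calls, and none in the other. In separate pairs 200 of 217 (92.2%) recurred and 1 was called in the other direction.

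By RNA-seq, the correlation of partner changes was highest in the shortest overlaps, while the share of pairs called together was not. For overlaps of 1 to 500 bp the Spearman correlation of partner changes between stages 8 and 11 was 0.50 over 87 pairs, of which 14 rose together, 4 fell together, 3 went opposite ways, 43 had 1 partner called and 23 neither. It was 0.18 for 501 to 1500 bp (171 pairs), 0.06 for 1501 to 3500 bp (167 pairs) and 0.15 for longer overlaps (117 pairs), beside 0.11 in separate pairs. The pairs called together were 18 of 87 (20.7%), 42 of 171 (24.6%), 33 of 167 (19.8%) and 18 of 117 (15.4%) from the shortest to the longest class, and those in opposite ways 3 (3.45%), 20 (11.7%), 26 (15.6%) and 15 (12.8%). Each family alone gave 0.46 and 0.41 for the shortest class, and its 65 pairs with no other feature touching them gave 0.59. For 501 to 1500 bp each family alone gave 0.30 and 0.24, and the 110 pairs with no other feature touching them gave 0.27. In the longer classes and in separate pairs these values lay between 0.04 and 0.15. By WTTS the same class gave 0.18 over the 29 pairs tested, and those 29 pairs gave 0.36 by RNA-seq. The weaker partner's median RNA-seq level was 1.41 CPM in the shortest class and 2.07, 3.27 and 2.21 CPM in the longer ones. The classes were set after the data were seen, and the difference between them was not tested.

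**Figure D2:**
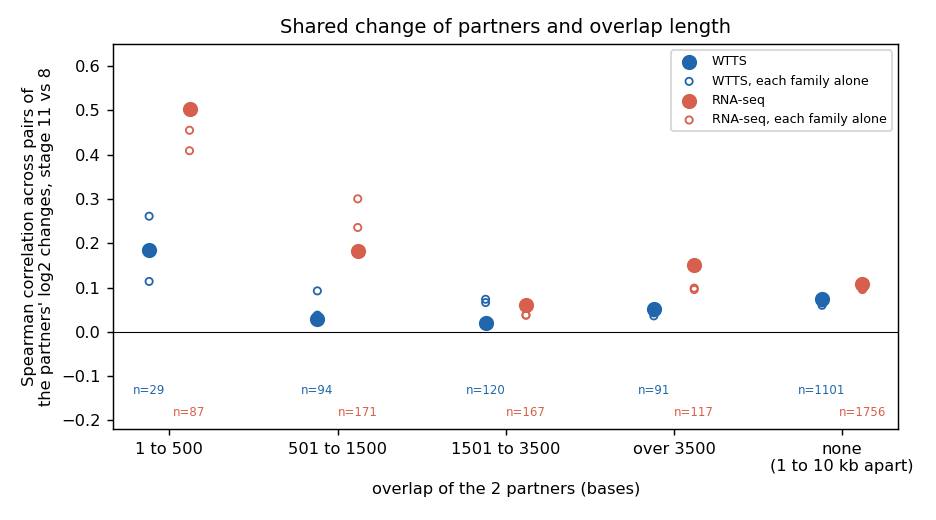
Spearman correlation between the log2 changes of partners at stage 11 against stage 8 (vertical axis, no unit) by overlap length class and in separate pairs, for WTTS and RNA-seq, with each family alone as open points and the number of pairs below. The RNA-seq value for 1 to 500 bp is 0.50, and the RNA-seq values over both families for the longer classes and separate pairs lie between 0.06 and 0.18. Each family alone gave 0.30 and 0.24 by RNA-seq for 501 to 1500 bp.

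Between stages 11 and 15 the changes were fewer. Against stage 11, 69 members rose and 35 fell by stage 15 (11.2%, against 10.8% of all features tested, with 6.85% higher and 3.96% lower). Of the 334 overlapping pairs, 1 rose together (0.299%, against 0.976% of all tail-to-tail pairs), 3 went opposite ways (0.898%, against 0.767%), 65 had 1 partner called (19.5%) and 265 neither. Separate pairs held 13 together, 8 in opposite ways and 223 with 1 partner called. The correlation of partner changes was 0.05 in overlapping and 0.01 in separate pairs. The ratio changed in 34 overlapping pairs (10.2%), 17 in each direction, against 11.7% of all tail-to-tail pairs. The opposite and ratio counts again fell with any 1 library left out, as did those of separate pairs. Without family 1 of stage 11 no pair went opposite ways or together and 4 ratios were called. Without its family 2, 1 went opposite ways. Without either family of stage 15 none went opposite ways or together, and 12 and 11 ratios were called. With the family as a block there were 7 together, 8 in opposite ways and 54 ratio calls. No share of separate pairs with the block is given beside these.

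The joint rise was in XLOC_025652 and XLOC_026752, on scaffold_9 at 4965537-4997992 and 4979821-5145104, with an overlap of 18172 bp and another feature touching them. XLOC_025652 had 1166 and 1506 CPM at stage 15, against 24.7 and 185 CPM at stage 11 (log2 change 3.68, SE 0.70, edgeR adjusted p = 0.00753). XLOC_026752 had 13.8 and 11.4 CPM at stage 15, against 3.27 and 3.02 CPM at stage 11 (log2 change 1.98, SE 0.49, adjusted p = 0.0237). Without family 2 of stage 11 the log2 change of XLOC_025652 was 5.75, and it ran from 2.85 to 5.75 over the libraries left out. Both were higher in both families, as the choice of named pairs required, though the plus partner stood far above the minus partner at stage 15. The call of XLOC_026752 was lost without any 1 of the 4 libraries of the step (adjusted p 0.0632 to 0.141).

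XLOC_020592 and XLOC_021761, on scaffold_7 at 53802398-53810088 and 53807604-53818007 with an overlap of 2485 bp and another feature touching them, went opposite ways. XLOC_020592 had 19.7 and 33.0 CPM at stage 15, against 3.87 and 5.03 CPM at stage 11 (log2 change 2.58, SE 0.48, edgeR adjusted p = 0.00697). XLOC_021761 had 9.37 and 7.75 CPM at stage 15, against 29.7 and 24.1 CPM at stage 11 (log2 change -1.65, SE 0.39, adjusted p = 0.0202). The dominant partner changed side in both families, and the ratio changed by 4.20 (SE 0.62, adjusted p = 0.00115). The call of XLOC_020592 was lost without family 1 of stage 11 or family 2 of stage 15 (adjusted p 0.0868 and 0.0511). That of XLOC_021761 was lost without either of these or family 1 of stage 15 (adjusted p 0.0846 to 0.135).

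Larger ratio changes came from 1 partner alone. XLOC_025455 and XLOC_025552, on scaffold_8c at 1993681-2004848 and 2004791-2009500, overlap by 58 bp. XLOC_025455 had 30.1 and 19.6 CPM at stage 15, against 0.297 and 1.01 CPM from 3 counts at stage 11, a count ratio of 38.1 with a counting interval of 13.0 to 185 (edgeR adjusted p = 0.00131). By RNA-seq it had 9.69 to 11.2 CPM in the same stage 11 pools, from 1139 to 1458 counts. The methods thus differed on whether this feature was present before stage 15. XLOC_025552 had 13.3 and 17.0 CPM at stage 15, against 8.33 and 11.6 CPM at stage 11 (log2 change 0.62, adjusted p = 0.433), and the adjusted p of the ratio was 0.00491. In XLOC_010380 and XLOC_011346, on scaffold_3 at 117147952-117157857 and 117154922-117165701 with an overlap of 2936 bp, the minus partner moved. XLOC_011346 had 54.7 and 59.4 CPM at stage 15, against 0.595 and 4.53 CPM at stage 11 (log2 change 4.65, SE 0.64, adjusted p = 0.00144). XLOC_010380 had 10.8 and 5.16 CPM, against 8.33 and 5.03 CPM (log2 change 0.24, adjusted p = 0.807), and the ratio changed by -4.58 (SE 0.92, adjusted p = 0.0074). Both ratio calls were lost without family 1 of stage 11 (adjusted p 0.0778 and 0.114), and that of XLOC_010380 and XLOC_011346 also without family 2 of stage 15 (0.0621). The ratio change of that pair was -3.02 without family 1 of stage 11.

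By stage 28 no overlapping pair was called in opposite ways in the fit without a family block. Against stage 15, 86 members rose and 71 fell (16.9%, against 18.2% of all features tested, with 9.88% higher and 8.37% lower). Of the 334 pairs, 3 rose together and 3 fell together (1.80%, against 1.88% of all tail-to-tail pairs), none went opposite ways by edgeR or DESeq2 (against 1.39%), 96 had 1 partner called (28.7%) and 232 neither. At an unadjusted p below 0.05 for both partners, 20 pairs moved together and 19 in opposite ways. The absence holds only for adjusted calls with the low-count filter and without a family block. With the family as a block, 11 went opposite ways and 15 together. The shares of all tail-to-tail pairs given here are from the fit without the block, so they are no background for these counts. Separate pairs held 21 together, 20 in opposite ways and 302 with 1 partner called, and at an unadjusted p below 0.05 the counts were 64 together and 53 opposite. The correlation of partner changes was -0.004 in both kinds of pair. The ratio changed in 59 overlapping pairs (17.7%), 31 upward, against 16% of all tail-to-tail pairs. The 6 pairs changed together became 2 without either family of stage 15 or family 1 of stage 28, and 1 pair went opposite ways without family 2 of stage 28. Ratio calls were 12 and 36 without family 1 and family 2 of stage 15, and 23 and 29 without those of stage 28.

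XLOC_010153 and XLOC_011121, which had risen by stage 11, were the clearest joint fall. XLOC_010153 had 0.749 and 1.36 CPM at stage 28, against 45.8 and 20.7 CPM at stage 15 (log2 change -5.01, SE 0.75, edgeR adjusted p = 0.00121). XLOC_011121 had 5.62 and 4.07 CPM at stage 28, against 425 and 601 CPM at stage 15 (log2 change -6.69, SE 0.63, adjusted p = 7.63e-05). Their ratio change was not called (adjusted p = 0.257). Over all 5 stages both partners of this pair were high at stages 11 and 15 and low at the others, and in the adult female they had 1.20 and 0.552 CPM and 0 and 0.170 CPM.

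XLOC_006098 and XLOC_007378, on scaffold_2 at 30953140-31071715 and 31062355-31277021 with an overlap of 9361 bp and another feature touching them, rose together. XLOC_006098 had 14.8 and 28.1 CPM at stage 28, against 2.46 and 9.29 CPM at stage 15 (log2 change 1.86, SE 0.59, edgeR adjusted p = 0.0480). XLOC_007378 had 68.0 and 78.3 CPM at stage 28, against 36.0 and 33.0 CPM at stage 15 (log2 change 1.09, SE 0.29, adjusted p = 0.0234). The families did not overlap between the stages, which the choice of named pairs required, and both calls were close to the threshold. With DESeq2's size factors the adjusted p of XLOC_006098 was 0.0510, and its call was also lost without family 1 of stage 15 or either family of stage 28 (adjusted p 0.0657 to 0.270). Its log2 change was 1.19 without family 1 of stage 15 and 3.09 without family 2. That of XLOC_007378 was lost without any 1 of the 4 libraries (0.0751 to 0.121).

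The ratio of XLOC_010162 to XLOC_011130 turned back at this step. XLOC_010162 had 11.4 and 6.44 CPM at stage 28, against 6.90 and 5.16 CPM at stage 15 (log2 change 0.59, edgeR adjusted p = 0.432), and XLOC_011130 had 3.37 and 6.10 CPM, against 46.3 and 34.1 CPM (log2 change -3.11, SE 0.42, adjusted p = 0.000618). Their ratio changed by 3.70 (SE 0.67, adjusted p = 0.0029). The ratio of XLOC_003743 to XLOC_004230, on scaffold_10 at 9969285-10008260 and 9998975-10020812 with an overlap of 9286 bp and another feature touching them, fell most. XLOC_004230 had 419.9 and 1079 CPM at stage 28, against 23.7 and 11.9 CPM at stage 15 (log2 change 5.40, SE 0.62, adjusted p = 0.000225). XLOC_003743 had 62.7 and 72.9 CPM, against 89.2 and 67.6 CPM (log2 change -0.20, adjusted p = 0.683), and the ratio changed by -5.51 (SE 0.66, adjusted p = 0.000325).

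By WTTS, more features were called between the adult female and stage 28 than between any 2 successive stages. Its 2 libraries are technical repeats of 1 animal, so the p-values below do not cover differences between animals. Of 986 members tested, 305 were higher and 238 lower in the female (55.1%, against 57.1% of all features tested, with 29.5% higher and 27.6% lower), with a median log2 difference of 0.19 over members and 0.07 over all features. Of 378 overlapping pairs with both partners tested, 55 changed together (35 higher and 20 lower, 14.6%, against 16.3% of all tail-to-tail pairs), 65 in opposite ways (17.2%, against 15.4%), 168 in 1 partner only (44.4%) and 90 in neither. Among 1210 separate pairs, 204 changed together (16.9%), 180 in opposite ways (14.9%) and 585 in 1 partner only (48.3%). The correlation of partner differences was -0.03 in overlapping and 0.02 in separate pairs, and the ratio differed in 201 overlapping pairs (53.2%, against 55.6% of all tail-to-tail pairs). Without family 2 of stage 28 the pairs together numbered 32 and those in opposite ways 36. Without the first female repeat these were 30 and 38, and 39 went opposite ways without the second.

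**Figure D3:**
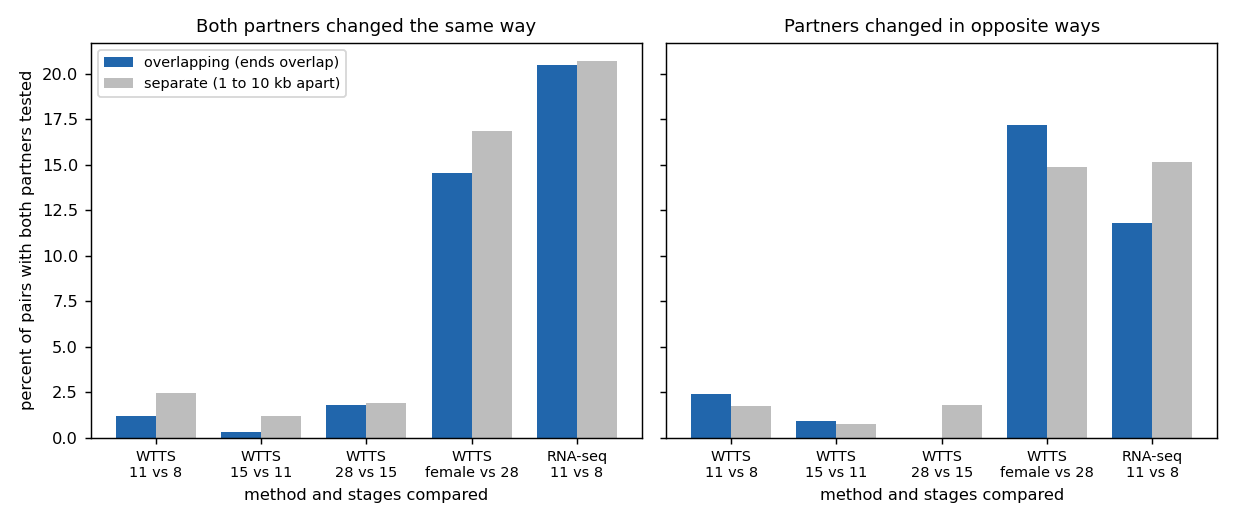
Percent of pairs with both partners tested in which both partners changed the same way (left) and in opposite ways (right), for each comparison with calls, in overlapping pairs beside separate pairs. The bars are at most 2.45% for the WTTS stage steps and between 11.8 and 20.7% for the adult female and for RNA-seq.

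XLOC_023480 and XLOC_024638, on scaffold_8 at 70080243-70126988 and 70125203-70143961 with an overlap of 1786 bp and another feature touching them, were both higher in the female. XLOC_023480 had 24.9 and 17.9 CPM in the female repeats, against 2.25 and 3.39 CPM at stage 28 (log2 difference 2.95, SE 0.44, edgeR adjusted p = 0.000117). XLOC_024638 had 54.5 and 49.7 CPM, against 9.18 and 10.9 CPM (2.38, SE 0.38, adjusted p = 0.00017). The pair that rose together by stage 15, XLOC_025652 and XLOC_026752, was the clearest joint fall. XLOC_025652 had 3.20 and 1.10 CPM in the female, against 231 and 268 CPM at stage 28 (-6.92, SE 0.86, adjusted p = 2.87e-05). XLOC_026752 had 3.10 and 3.40 CPM, against 29.0 and 27.5 CPM (-3.11, SE 0.43, adjusted p = 5.98e-05). The plus partner fell further, with a ratio difference of -3.94 (SE 0.77, adjusted p = 0.000526).

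XLOC_020604 and XLOC_021770, on scaffold_7 at 54313220-54350955 and 54349436-54379376 with an overlap of 1520 bp, were the clearest pair in opposite ways. XLOC_020604 had 0.0999 and 0.255 CPM in the female, against 11.99 and 10.51 CPM at stage 28 (-5.66, SE 0.66, edgeR adjusted p = 1.73e-05). XLOC_021770 had 119.98 and 111 CPM in the female, against 1.12 and 0.678 CPM at stage 28 (6.89, SE 0.51, adjusted p = 5.19e-07). In embryos XLOC_020604 had 163 and 82.6 CPM at stage 15, against 0 and 0.577 CPM at stage 6, while XLOC_021770 had 17.7 and 8.26 CPM at stage 15, against 65.4 and 57.4 CPM at stage 6. Both partners were lower at stage 28 than at stage 15 in both families. Their ratio difference was -12.61 (SE 0.84, adjusted p = 5.11e-08).

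The ratio rose most in XLOC_000496 and XLOC_002274, on scaffold_1 at 61682069-61702266 and 61698040-61711527, with an overlap of 4227 bp. XLOC_000496 had 71.2 and 46.8 CPM in the female, against 3.93 and 5.77 CPM at stage 28, and XLOC_002274 had 1.40 and 1.15 CPM, against 48.9 and 31.2 CPM. Both differences were called (3.63 with SE 0.48 and -4.98 with SE 0.58, edgeR adjusted p = 4.5e-05 and 1.75e-05), and the ratio differed by 8.53 (SE 0.85, adjusted p = 1.82e-06). XLOC_026644 and XLOC_027662 returned to the order of the early stages. XLOC_026644 had 1 count in each female repeat, against 224 and 189.9 CPM at stage 28, lower by a count ratio of 2910 with a counting interval of 806 to 24032 (adjusted p = 3.07e-07). XLOC_027662 had 315 and 241 CPM in the female, against 24.9 and 25.8 CPM at stage 28 (3.45, SE 0.41, adjusted p = 1.81e-05).

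**Figure D4:**
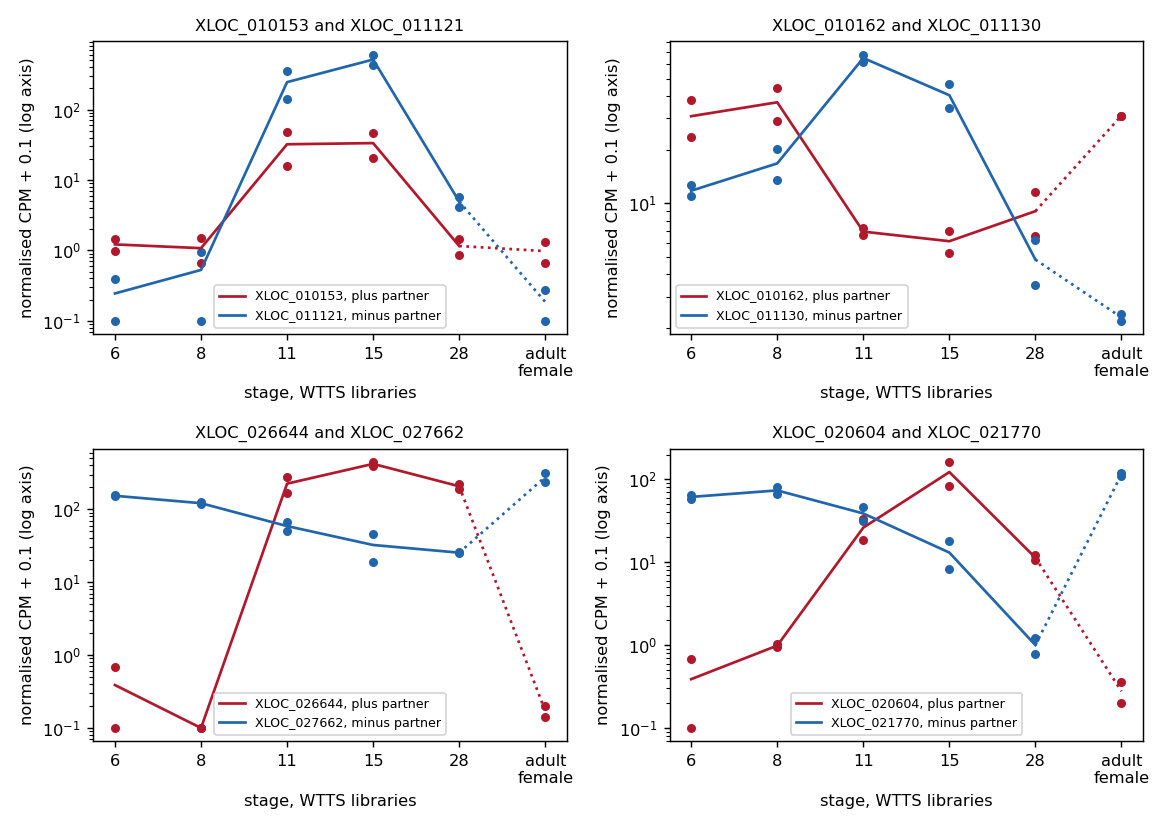
WTTS levels (CPM + 0.1 on a log axis) of both partners of 4 named overlapping pairs at embryo stages 6, 8, 11, 15 and 28 and in the adult female, with 1 point per library and lines through the means. In XLOC_010153 and XLOC_011121 both lines are high at stages 11 and 15. The lines of the partners cross in all 4 pairs.

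The last comparison was of WTTS with RNA-seq in the 6 embryo pools that had both. Both methods mostly gave the same larger partner, meaning the one with more reads by any margin, without the rule of at least 2 times. Averaged over the pools, it was the same in 461 of 507 overlapping pairs (90.9%), against 89.2% of 1639 separate pairs. In single pools it was the same in 89.7 to 92.7% of overlapping and 88.0 to 90.4% of separate pairs, with each RNA-seq library thinned to the WTTS total of its pool. The partner log ratio by WTTS had a Spearman correlation with that by RNA-seq of 0.901 to 0.916 over 308 to 450 overlapping pairs and of 0.921 to 0.936 over 992 to 1487 separate pairs. The size of the ratio differed more often, in 284 of 592 overlapping pairs (48.0%), 146 with a higher and 138 with a lower plus share by WTTS. That was against 42.3% of all tail-to-tail pairs and 750 of 1853 separate pairs (40.5%). The fit behind these counts did not pair the libraries by pool and had no term for stage. By overlap class, 44 of 88, 83 of 179, 88 of 183 and 69 of 142 pairs differed, and the median absolute log2 difference was 1.94 in overlapping and 1.70 in separate pairs.

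XLOC_006482, a feature of 2646 bp on scaffold_2 at 84178634-84181279, overlaps XLOC_007752 (84178680-84254282) by 2600 bp and had the largest shift towards WTTS. In the order of stages 6, 8 and 11 with family 1 before family 2, XLOC_006482 had 15.4, 88.7, 95.9, 27.6, 62.5 and 32.7 CPM by WTTS and 0 or 1 count per library by RNA-seq, 4 counts in all. XLOC_007752 had 92.9 to 133 CPM by WTTS and 46.2 to 55.9 CPM by RNA-seq. Nearly the whole of the plus feature lies inside its partner, and its reads were almost all from WTTS. The adjusted p of the ratio difference was 3.29e-07 by edgeR. The WTTS level of XLOC_006482 varied widely. It ran from 0.176 to 1330 CPM in the 7 trials of the adult pool, whose protocols differ, with 2 counts by RNA-seq of that pool. At stage 28 the families had 435 and 17.0 CPM. The opposite case was XLOC_005473 and XLOC_005478, on scaffold_169 at 37066-57845 and 57423-90773, with an overlap of 423 bp and another feature touching them. XLOC_005473 had 0 to 5 counts per library by WTTS and 5.56 to 62.3 CPM by RNA-seq. At stage 11 XLOC_005478 had 213 and 120.2 CPM by WTTS and 28.0 and 23.0 CPM by RNA-seq. By WTTS it had 1 and 1 counts at stage 6 and 0 and 20 counts at stage 8, so the WTTS ratio rested on few counts there. The ratio difference was -8.43 (SE 2.66, adjusted p = 0.0224) and was lost without family 1 of stage 6 (adjusted p = 0.0664).

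Per pool, and with RNA-seq thinned to the WTTS total, partners with under 5% of the pair's reads were slightly fewer by WTTS. In pairs with a summed count of at least 50 in both libraries of a pool, the share of overlapping pairs with such a weak partner was 52.6 ± 3.06% by WTTS and 54.9 ± 3.02% by RNA-seq (SD, n = 6 pools), lower by WTTS in 6 of 6 pools. In separate pairs it was 46.8 ± 3.00% and 50.6 ± 3.29%, again lower in 6 of 6. The two-sided exact permutation test over 64 sign flips gave p = 0.03125 for each, the smallest it can give, and 0.0938 after adjustment over the 6 tests made. The direction depended on the settings: without thinning the difference was 0.143 points in overlapping pairs, and with a summed count of at least 200 it was 1.75 points in separate pairs. The excess of overlapping over separate pairs was 5.83 ± 1.03 percentage points by WTTS and 4.37 ± 2.38 by thinned RNA-seq, higher by WTTS in 5 of 6 pools (exact p = 0.219, adjusted 0.262). The full embryo RNA-seq libraries, with pairs chosen on each library's own count, had no such excess in the median. There the median share was 54.5% in overlapping pairs (45.1 to 55.2%) and 55.5% in separate pairs (45.2 to 56.2%). The levels of partners had a Spearman correlation of -0.545 by WTTS and -0.541 by RNA-seq in overlapping pairs (difference -0.004, exact p = 0.719), and of -0.404 and -0.384 in separate pairs (exact p = 0.0625, adjusted 0.125). The difference between the kinds of pair in this shift was 0.016 (exact p = 0.125, adjusted 0.188). In overlapping pairs the difference was -0.128 without thinning, which passed the exact test (adjusted p = 0.0469), and 0.0576 with a summed count of at least 200 (adjusted p = 0.188). The negative sign of these correlations includes the choice of pairs on their summed count.

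**Figure D5:**
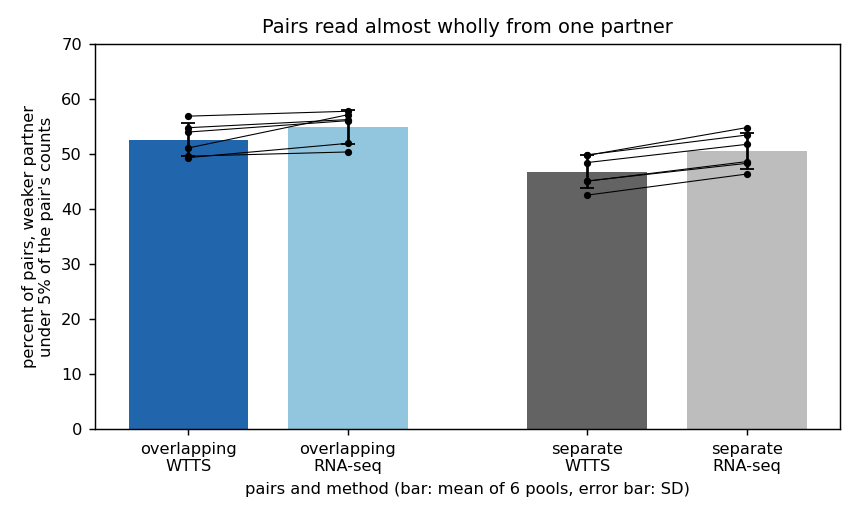
Share of pairs (percent, bars from 0) in which the weaker partner held under 5% of the pair's counts, by WTTS and RNA-seq, in overlapping and in separate pairs. RNA-seq was thinned to the WTTS total of its pool. Bars are means over 6 embryo pools, error bars are SD, and points joined by a line are the 2 libraries of a pool. Each line is lower at its WTTS end, and the overlapping bars (52.6 and 54.9%) stand above the separate ones (46.8 and 50.6%).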

How the data were processed

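Counts per feature were taken from the table that the authors deposited: raw whole-number read counts for 27836 features and 26 libraries, with scaffold, start, end and strand. Aligner, counter, build, strand use and whether positions start at 0 or 1 are not given in the sources at hand. Lengths count both end positions. Trizol was used to extract the RNA, and fragmented RNA was enriched for poly(A) in WTTS, per the labels' protocols.

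Pairs were found from positions and strands (Python 3.11.15). The tests ran in edgeR 4.0.16 (R 4.3.3; TMM, filterByExpr, quasi-likelihood F-test, Benjamini-Hochberg adjusted p below 0.05 over all features or all tail-to-tail pairs tested), in 1 fit of the 10 embryo WTTS libraries, 1 of the 6 embryo RNA-seq libraries and 1 of 12 libraries with the adult female. All adjusted p-values of features and ratios come from this test. The partner ratio test used 1 line per pair and 2 columns per library, with a term per library and partner by group. For the methods it used the 12 libraries of 6 pools, with the method as the group and no term for pool or stage. RNA-seq was thinned to the WTTS total of its pool for the measures per pool. The scripts were tested on simulated data. Every 2 replicates differed by more than sampling noise. In the labels, the same family numbers mark the same families across stages. Same-family libraries deviated together, with correlations of 0.104 to 0.398 by WTTS over 10 pairs of stages and 0.273 to 0.580 by RNA-seq over 3, so the family was also fitted as a block.

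In each comparison, the pair with the largest smaller change was named for both higher, both lower and opposite ways, among pairs with both partners called, a mean level of 3 or more (log2 CPM) for each partner and groups that do not overlap, and likewise the pair with the largest ratio change in each direction. The pairs, classes and tests were chosen with earlier results of these data known. Alternatives were DESeq2 1.42.0 and its size factors, no low-count filter, a log2 change of at least 1, pairs touching no other feature, the family or pool block, each library left out, a summed count of at least 200, a weaker partner under 1% and RNA-seq not thinned.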

Additional observations from a re-analysis of the deposited data

How the results depend on the processing

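Most counts of overlapping pairs kept their size under other settings that used all libraries, and those that moved by over 1.5 times are given here. For the WTTS step to stage 11, pairs changed together numbered 9 with no low-count filter and 11 with the family as a block. In opposite ways went 5 of the 213 tested pairs touching no other feature (2.35%, beside 2.40% of all 334 tested). For the step to stage 15, pairs together numbered 2 by DESeq2, 2 with no filter, 0 with no other feature touching and 7 with the block, those in opposite ways 5 with no filter and 8 with the block, and ratio calls 54 with the block. For the step to stage 28, together there were 13 with no filter and 15 with the block, and in opposite ways 5 and 11. For RNA-seq, 67 together and 41 opposite had a log2 change of at least 1. Among the 360 tested pairs touching no other feature, 73 changed together and 41 in opposite ways. These are 20.3% and 11.4%, beside 20.5% and 11.8% of all 542 tested. For the female, 36 together and 125 ratio calls touched none, as did 19 ratio calls at the step to stage 15, out of fewer pairs tested (235 and 213). The block changed no other count by over 1.5 times. Counts of separate pairs with the block are not given here, so the blocked counts have no background beside them. The numbers pair families by label.

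Leaving out 1 library gave 1 to 2 pairs together, 1 to 3 opposite and 18 to 36 ratio calls at the step to stage 11, 0 to 1, 0 to 1 and 4 to 29 to stage 15, and 2 to 5, 0 to 1 and 12 to 36 to stage 28. By RNA-seq these were 56 to 101, 28 to 55 and 179 to 240, and in the female 30 to 40, 36 to 45 and 166 to 172. Leaving out a pool gave 234 to 296 ratio differences between methods. The cause of these shifts was not tested, beyond the smaller number of libraries. Of 38 named results, 29 kept their call under every setting, 9 lost it in at least 1 and none reversed.

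Between the methods, without thinning RNA-seq the difference in the correlation of partner levels was -0.128 in overlapping and -0.075 in separate pairs, each passing the exact permutation test, and between the kinds it reversed to -0.052. The difference in weak partners was then 0.143 points in overlapping pairs, reversed, and -3.09 points in separate pairs, which passed. With a summed count of at least 200, the correlation difference in overlapping pairs reversed to 0.0576, that in weak partners of separate pairs to 1.75 points and that between the kinds to -4.56 points. Without 1 pool the correlation difference in overlapping pairs ran from -0.0111 to 0.000712. With 5 pools the smallest p is 0.0625, so those tests could not pass. Embryo WTTS depth limits the pairs tested to 334 of 674, and no change can be read for the rest.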

Other observations

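The adult pool was the one RNA measured by all 7 WTTS trials and by RNA-seq. Its overlapping pairs had the same larger partner, by any margin, in WTTS and RNA-seq in 82.4, 83.7, 80.5, 83.5, 85.5, 89.4 and 89.8% of pairs in trials 1 to 7, over 431 to 597 pairs with enough counts. The Spearman correlation of the partner log ratio between the methods was 0.795, 0.846, 0.781, 0.799, 0.848, 0.933 and 0.918. Trials 6 and 7 stood nearest to RNA-seq on both measures. The embryo pools, whose RNA-seq was thinned to the WTTS total, had 89.7 to 92.7% and 0.901 to 0.916. In separate pairs of trials 1 to 7 the larger partner was the same in 81.5, 79.7, 80.3, 82.4, 85.6, 86.6 and 87.5%. The trials differ in protocol and were not compared by a test.

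The share of overlapping pairs with a partner under 5% of the pair's reads was 56.3 and 57.3% at stage 6, 56.4 and 53.9% at stage 8, 51.5 and 50.4% at stage 11, 53.1 and 49.9% at stage 15, and 42.6 and 44.1% at stage 28, in families 1 and 2. It was 54.1 and 52.1% in the female repeats and 75.5, 47.1, 60.5, 43.1, 39.9, 47.6 and 46.8% in trials 1 to 7 of the adult pool, whose RNA-seq library had 46.8%. In separate pairs the share was 50.5 and 50.2% at stage 6 and 40.3 and 38.5% at stage 28, in families 1 and 2. It was thus lower at stage 28 than at stage 6 in both kinds of pair. Separate pairs stood above overlapping ones in trials 3, 4 and 5, and below them in every other library listed here. Depth differs between these libraries, and the values were not thinned or tested.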
